A study of Mus musculus with 6 samples.

Results

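The genes described are 10 mouse genes for secreted chemokines and cytokines: Cxcl12, Cxcl1, Cxcl5, Cxcl16, Cx3cl1, Ccl2, Ccl5, Ccl7, Il6 and Lif. They were found as the probe sets whose platform annotation names 1 gene symbol only, that symbol being one of these genes. All 10 are on the array, through 19 probe sets, among 18193 genes in all, and each was read from its probe set with the highest mean log2 signal.

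RNA of ovarian surface epithelial cells, the layer that covers the ovary, was hybridised to 6 single-colour Affymetrix mouse arrays. The cells came from mouse ovarian tumours and were freed with trypsin, plated and collected unpassaged. There were 2 arrays of cells homozygous for the R172H mutation of p53 (both from mice 4 weeks old), 2 of cells heterozygous for R172H beside a wild-type allele (9 and 12 weeks), and 2 of cells with wild-type p53 (both 9 weeks). The labels of all 3 groups carry the prefix P/K, which they do not spell out, and describe the cells as tumour cells, those with wild-type p53 included. The background strain is mixed. R172H alters the DNA-binding domain of p53, the transcription factor that arrests or kills damaged cells, and the series asks how expression differs with p53 status. Age and homozygosity cannot be told apart, and where 1 field of the homozygous labels disagreed with the sample titles on the gene's name, the titles were followed. The heterozygous arrays differ in age and so came from separate mice. For the other groups the labels do not say whether the arrays did, so p-values measure the spread between these arrays, which may be technical.

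Chemokines are small secreted proteins that direct the movement of cells bearing their receptors, and are classed as CXC, CC or CX3C by the spacing of their first cysteines. Cxcl12 is made steadily by stromal and mesothelial cells and acts through the receptor Cxcr4, with Ackr3 as a second, scavenging receptor. Cxcl1, Cxcl5, Ccl2, Ccl5 and Ccl7 belong to the inflammatory chemokines, which call neutrophils or monocytes and T cells, and several of them are induced through the transcription factor NF-kappaB. Interleukin 6 and leukaemia inhibitory factor (Lif) share the signalling subunit gp130, the product of Il6st, which activates STAT3.

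Promoter sequence is shown for Cxcl12, the gene that rose, and for Cxcl1 and Il6. The last 2 were picked because their windows held a kappaB motif, so that difference from Cxcl12 follows from the choice. Windows of 300 bases, 250 before and 50 after the gene start, were taken from RefSeq (build GRCm38.p6, plus strand), which matched 5 of the 10 genes. Cxcl5, Cxcl16, Ccl2, Ccl5 and Ccl7 had no window, so their promoters were not searched. Capitals mark matches to the GC box (GGGCGG) in Cxcl12 and to the kappaB motif searched (GGGA, any base, TTTCC) in Cxcl1 and Il6, on either strand.
Cxcl12, chr6:117168285-117168584: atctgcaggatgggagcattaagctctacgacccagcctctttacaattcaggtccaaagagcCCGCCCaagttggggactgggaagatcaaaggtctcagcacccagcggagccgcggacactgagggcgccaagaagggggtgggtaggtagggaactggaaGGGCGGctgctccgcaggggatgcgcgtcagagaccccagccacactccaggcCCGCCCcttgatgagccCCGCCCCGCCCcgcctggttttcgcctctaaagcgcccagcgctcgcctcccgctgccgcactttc
Cxcl1, chr5:90890995-90891294: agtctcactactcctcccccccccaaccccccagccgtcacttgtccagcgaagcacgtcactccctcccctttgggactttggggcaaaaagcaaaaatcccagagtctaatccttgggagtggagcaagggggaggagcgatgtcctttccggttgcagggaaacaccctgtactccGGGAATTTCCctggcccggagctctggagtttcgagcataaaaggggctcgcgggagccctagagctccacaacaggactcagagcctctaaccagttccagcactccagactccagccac
Il6, chr5:30012864-30013163: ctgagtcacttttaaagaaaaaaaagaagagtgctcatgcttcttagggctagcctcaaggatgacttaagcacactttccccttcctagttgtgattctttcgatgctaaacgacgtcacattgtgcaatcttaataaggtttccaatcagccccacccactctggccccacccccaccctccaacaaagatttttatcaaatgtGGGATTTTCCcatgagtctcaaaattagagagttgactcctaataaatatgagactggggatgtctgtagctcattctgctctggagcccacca
The Cxcl12 window held 5 GC boxes, the 2 nearest the start overlapping by their end bases, and no kappaB match. A GC box was present in 35.7% of 32851 promoter windows of this length and in 2 of the 5 windows of the members, those of Cxcl12 and Cx3cl1. The kappaB motif was present in 0.411% of all windows and in 2 of the 5, starting 71 bases before the start in Cxcl1 and 44 bases before it in Il6. An AP-1 motif (TGANTCA), present in 7.81% of all windows, was found in Il6 and Lif. A p53 half-site was found in Il6 and in 8.36% of all windows, and a TATA box (TATAAA) in Cx3cl1 and in 13.6%. These are matches of letters, and no binding was measured.

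Cells homozygous for R172H had more Cxcl12 signal than cells of either other group, and less Cxcl16. Against heterozygous cells Cxcl12 rose 12.1-fold and Cxcl16 fell by 1.99 on the log2 scale, and these were the members that passed the test. The same 2 genes had the lowest p-values of the members against wild-type cells but missed the threshold there. By their chosen probe sets, Ccl2, Ccl5, Ccl7 and Il6 were more than 2-fold higher in homozygous array 2 than in homozygous array 1. Cxcl5, Cx3cl1 and Cxcl1 were more than 2-fold lower there. The other probe sets of Cxcl1 and the second of Cx3cl1 did not differ that far. No member passed between heterozygous and wild-type cells.

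Values are probe set signals on a linear scale, set by the authors to a common level in each array, and tests were run on their log2 values with limma, as a single fit of all 6 arrays with 3 group means. Calls were made where the p, adjusted by Benjamini-Hochberg over 10916 tested genes, was under 0.05. The tested genes were those at or above the 40th percentile of mean signal. Of the 10 genes 7 were tested, and Cxcl5, Ccl5 and Il6 were too dim. The background level, 24.5, is the highest signal of a bacterial control absent from mouse RNA. Array medians lay at 41.1 and 49.0 in homozygous, 49.7 and 55.3 in heterozygous and 60.6 and 50.9 in wild-type cells. Array data have no count depth, and precision is limited by 2 arrays a group. The homozygous arrays stood apart from each other, with an SD of 1.30 for their log2 difference over tested genes. In the heterozygous pair it was 0.55 and in the wild-type pair 0.60. Homozygous array 2 was closer to every heterozygous and wild-type array (SDs from 1.07 to 1.21) than to homozygous array 1. Where an array was left out, the lone array of its group was assumed to vary like the other groups. Without a homozygous array the spread comes from the heterozygous and wild-type pairs alone, and between 673 and 2842 genes were called, so a call in those fits is no sign of stability. Wild-type array 2 and heterozygous array 1 were closer to each other (SD 0.31) than to the other array of their group. These are averages over a culture, in which fewer cells of a type and less RNA per cell cannot be told apart.

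**Figure D1:**
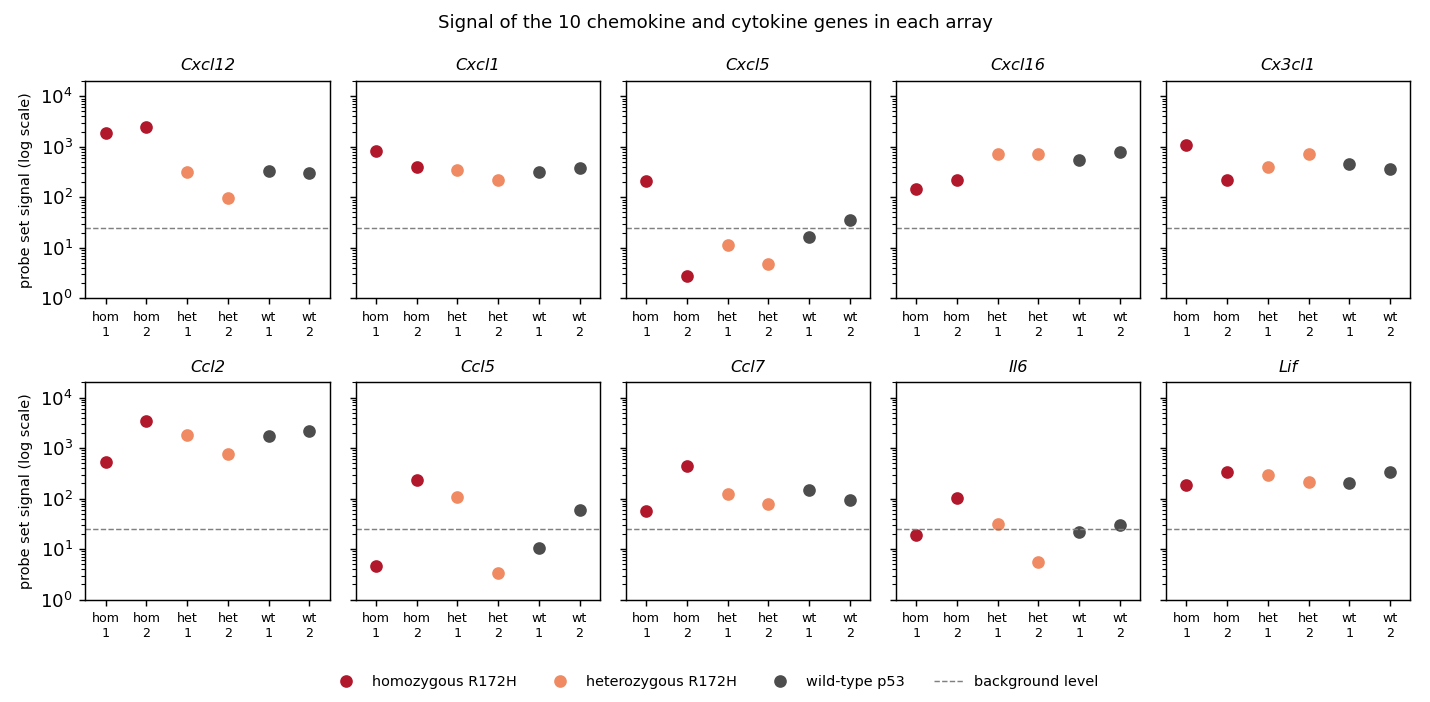
Each point is the signal of a gene's chosen probe set in 1 array, on a log axis, for homozygous R172H (hom), heterozygous R172H (het) and wild-type p53 (wt) arrays 1 and 2, and the dashed line is the background level of 24.5. Both homozygous arrays lie above the other 4 for Cxcl12 (1842 and 2446) and below them for Cxcl16 (148 and 217), while in the bottom row homozygous array 2 is far above array 1 for Ccl2, Ccl5, Ccl7 and Il6.

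Among the CXC chemokines, Cxcl12 had signals of 1842 and 2446 in homozygous arrays, 320.0 and 96.3 in heterozygous arrays and 325 and 305 in wild-type arrays. Both homozygous arrays were above all 4 others, and heterozygous array 2, from the mouse of 12 weeks, was the lowest. Homozygous minus heterozygous, the log2 fold change was 3.60 ± 0.59 (SE, n = 2 arrays a group), with an adjusted p of 0.0437 by limma. It ranked 16 among the 10916 fitted changes in that comparison, counted from the largest rise. Homozygous minus wild-type it was 2.75 ± 0.59, a ratio of 6.74, with an adjusted p of 0.0690 by limma, and did not pass. Heterozygous minus wild-type it was -0.84 ± 0.59 (adjusted p of 1 by limma), and the groups overlapped. The call against heterozygous cells ended when either wild-type or either heterozygous array was left out, with log2 values between 2.73 and 4.46 and adjusted p between 0.112 and 0.189. Without homozygous array 2, a lone homozygous array with the spread of the other groups, the change against wild-type cells was 2.55 (adjusted p of 0.0484 by limma).

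The gene's other probe sets were read beside it. A second Cxcl12 probe set had signals of 574 and 992 in homozygous, 48.6 and 4.92 in heterozygous and 56.1 and 56.6 in wild-type arrays. It showed the same order of groups, with log2 differences of 3.74 from wild-type and 5.61 from heterozygous cells, where heterozygous array 2 was under background. The third was under background in 5 of 6 arrays, with signals between 1.08 and 37.0. Averaging all 3 lowered the log2 value against heterozygous cells to 2.64, which did not pass (adjusted p of 0.105 by limma), and that against wild-type cells to 1.55.

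Cxcl16, a chemokine made as a membrane-bound protein that also acts as a scavenger receptor, had signals of 148 and 217 in homozygous arrays, 718 and 710.5 in heterozygous arrays and 553 and 798 in wild-type arrays. Both homozygous arrays lay below the other 4. Against heterozygous cells it fell by 1.99 ± 0.31 on the log2 scale (SE, adjusted p of 0.0412 by limma). Against wild-type cells the log2 fold change was -1.89 ± 0.31 with an adjusted p of 0.0502 by limma, which narrowly missed the threshold. Without homozygous array 2, with the spread of the other groups alone, it was -2.16 (adjusted p of 0.00923 by limma). Heterozygous minus wild-type it was 0.10 ± 0.31. Its second probe set had 116 and 142 in homozygous, 690.3 and 695 in heterozygous and 528 and 708 in wild-type arrays, in the same order. Like that of Cxcl12, the call against heterozygous cells ended without either wild-type or either heterozygous array, here with adjusted p between 0.110 and 0.277 by limma. It also ended when arrays were centred on their medians (-1.77, adjusted p of 0.0623 by limma).

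Cxcl1, which attracts neutrophils through Cxcr2, had signals of 833 and 398 in homozygous arrays, 347 and 217 in heterozygous arrays and 309.7 and 378 in wild-type arrays. The homozygous arrays were above the others, array 2 only narrowly so. The log2 fold change was 1.07 ± 0.45 against heterozygous cells (adjusted p of 0.182 by limma) and 0.75 ± 0.45 against wild-type cells (adjusted p of 0.316 by limma), and neither passed. Against heterozygous cells it was 1.60 without homozygous array 2 (adjusted p of 0.0331 by limma, with the spread of the other groups alone) and 0.54 without array 1. Of its other 2 probe sets, 1 did not overlap between homozygous and either other group, with 626 and 391 in homozygous, 216 and 210.4 in heterozygous and 287 and 370.1 in wild-type arrays. The other overlapped with heterozygous cells, at 394 and 329 in homozygous and 171 and 371 in heterozygous arrays.

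Cxcl5, a related neutrophil attractant, was above background in 2 of 6 arrays and was not tested. It had 208 and 2.73 in homozygous arrays, 11.6 and 4.70 in heterozygous arrays and 16.6 and 35.8 in wild-type arrays. A single array, homozygous array 1, thus stood well above background. In GRCm38.p6, Cxcl1 and Cxcl5 lie on chromosome 5 with 4 protein-coding genes between them, all chemokines.

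Cx3cl1 encodes fractalkine, a membrane-anchored chemokine whose receptor Cx3cr1 is carried by monocytes and macrophages. Its signals were 1103 and 216 in homozygous arrays, 389 and 709 in heterozygous arrays and 465 and 365 in wild-type arrays. The highest and the lowest of the 6 values were both from homozygous cells. The log2 fold change was -0.11 ± 0.81 against heterozygous and 0.25 ± 0.81 against wild-type cells (adjusted p of 0.943 and 0.860 by limma). A second, dimmer probe set did not show the difference within the homozygous pair, with 36.8 and 36.4, against 43.7 and 81.4 in heterozygous and 80.5 and 67.2 in wild-type arrays. Its remaining 2 probe sets lay between 1.27 and 33.5.

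Among the CC chemokines, Ccl2, the main attractant of monocytes through Ccr2, had signals of 535 and 3423 in homozygous arrays, 1812 and 755 in heterozygous arrays and 1747 and 2153 in wild-type arrays. Homozygous array 2 was the highest of the 6 and array 1 the lowest, 6.40-fold apart. The log2 fold change was 0.21 ± 0.94 against heterozygous cells and -0.52 ± 0.94 against wild-type cells (adjusted p of 0.900 and 0.7395 by limma), and neither passed.

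Ccl7, another monocyte attractant, is the gene next to Ccl2 on chromosome 11, with 0 protein-coding genes between them in GRCm38.p6. Its signals were 57.1 and 445 in homozygous arrays, 123 and 77.9 in heterozygous arrays and 148 and 94.3 in wild-type arrays. As for Ccl2, homozygous array 2 was the highest and array 1 the lowest, here 7.80-fold apart. The log2 fold change was 0.71 ± 0.98 against heterozygous and 0.44 ± 0.98 against wild-type cells (adjusted p of 0.655 and 0.791 by limma). Against heterozygous cells it was 2.19 without homozygous array 1 (adjusted p of 0.0459 by limma, with the spread of the other groups alone, which leaves out the difference within the homozygous pair) and -0.77 without array 2.

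Ccl5, which attracts T cells and monocytes, had signals of 4.56 and 237 in homozygous arrays, 106 and 3.40 in heterozygous arrays and 10.7 and 59.1 in wild-type arrays. In each group 1 array was above background and the other below it, and the gene was not tested.

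Of the gp130 cytokines, Il6 had signals of 19.0 and 101 in homozygous arrays, 32.1 and 5.596 in heterozygous arrays and 21.7 and 30.0 in wild-type arrays. It was above background in 1 array of each group, clearly so only in homozygous array 2, and was not tested. Lif had 188 and 331 in homozygous arrays, 294 and 210.5 in heterozygous arrays and 206 and 342 in wild-type arrays, a range of 1.81-fold over all arrays. Its second probe set was under background in 4 of 6 arrays, at 1.59 and 37.2 in homozygous, 14.4 and 3.30 in heterozygous and 29.7 and 9.10 in wild-type arrays, and averaging both gave a log2 value of -0.59 against wild-type cells, not called. Its log2 fold changes were 0.01 ± 0.42 against heterozygous cells and -0.09 ± 0.42 against wild-type cells (adjusted p of 0.993 and 0.909 by limma), and its groups overlapped in every comparison.

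Against heterozygous cells, 2 of the 7 tested genes were called, where 4.09% of all tested genes were. Of these 1 was higher, as were 0.87% of all tested genes, and 1 lower, as were 3.22%. At an unadjusted p under 0.05 they were again 2 of 7, against 30.6% of all. Against wild-type cells 0 of 7 were called, where 2.66% of all were (0.403% higher and 2.25% lower), and 2 of the 7 had an unadjusted p under 0.05, where 28.9% of all did. Between heterozygous and wild-type cells 0 of 7 were called and 0 of 10916 genes were by limma, the only tool run, where 0% were called, with 0 of the 7 and 71 of all genes (0.65%) at an unadjusted p under 0.05. Arrays did not overlap for 3 of the 7 tested genes against heterozygous cells, 2 higher and 1 lower, where 62.5% of all tested genes did not (28.2% higher and 34.2% lower). Against wild-type cells it was again 2 higher and 1 lower, where 61.2% of all did not overlap (27.4% higher and 33.8% lower). The members' share was thus below that of all genes. Those 3 were Cxcl12, Cxcl1 and Cxcl16 in both comparisons, which share the homozygous arrays. The median log2 fold change of the 7 was 0.21 against heterozygous cells (-0.08 over all tested genes), 0.25 against wild-type cells (-0.09 over all) and -0.27 between heterozygous and wild-type cells (0.00 over all).

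**Figure D2:**
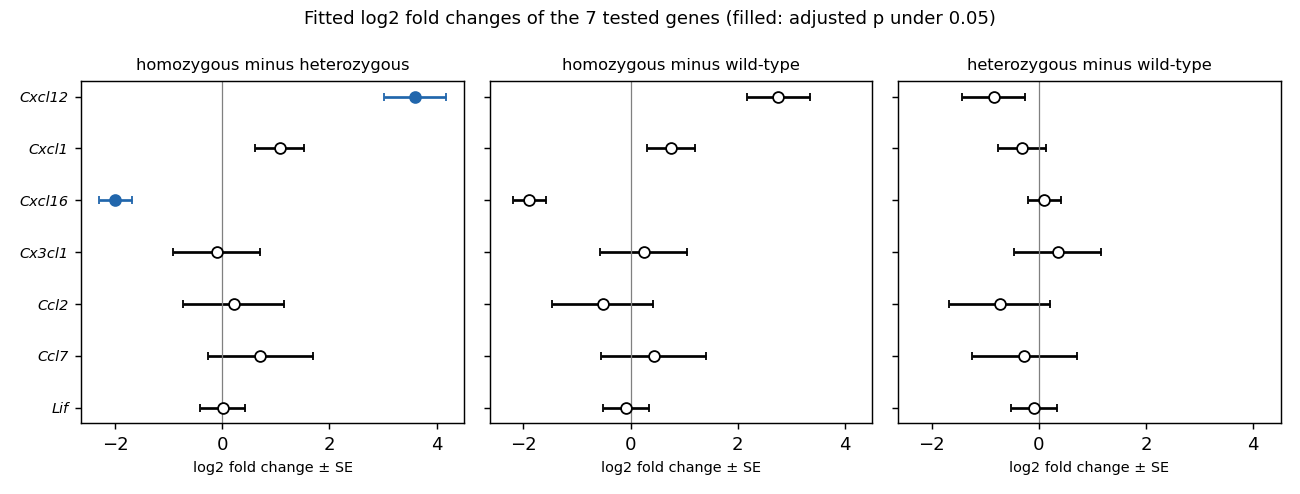
Points are limma log2 fold changes with standard errors for the 7 tested genes in each comparison of groups, filled where the adjusted p was under 0.05. Cxcl12 (3.60) and Cxcl16 (-1.99) are the called genes, both against heterozygous cells, and the error bars of Ccl2, Ccl7 and Cx3cl1 reach 0.94, 0.98 and 0.81.

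The homozygous arrays gave the 10 genes, by their chosen probe sets, in 3 patterns. Ccl2, Ccl5, Ccl7 and Il6 were higher in array 2 by more than 1 on the log2 scale, with differences of 2.68 for Ccl2 and 2.96 for Ccl7. Array 1 was under background for Ccl5 and Il6, so that their differences are bounds, at least 3.27 and 2.04 with that array set to the background level. Cx3cl1 and Cxcl1 were lower in array 2, with differences of -2.35 and -1.07, as was Cxcl5, under background there, with a bound of -3.08 or lower. The other probe sets of Cxcl1 differed by only -0.68 and -0.26, and the second, dimmer probe set of Cx3cl1 by -0.01. Cxcl12, Cxcl16 and Lif differed by 0.41, 0.55 and 0.81.

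Within the homozygous pair 4 of the 7 tested genes differed by more than 1 on the log2 scale, as did 21.0% of all tested genes. The differences of Ccl7, Ccl2 and Cx3cl1 were larger in size than those of 95.3%, 94.5% and 93.3% of tested genes, and that of Cxcl12 was larger than 48.6%. In the heterozygous pair array 1 was the higher by more than 1 for 3 of the 10 genes, Cxcl12, Ccl2 and Ccl5, with signals under background set to that level. In the wild-type pair, array 2 was the higher by more than 1 for Ccl5 only.

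**Figure D3:**
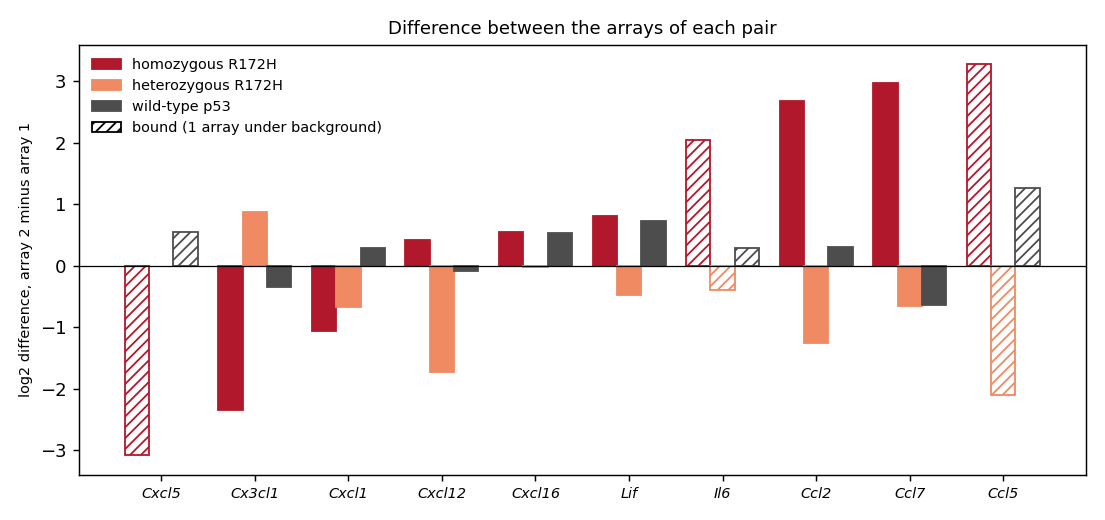
Bars give the log2 difference between array 2 and array 1 of each pair for the 10 genes, ordered by the homozygous difference. Hatched bars are bounds, with the array under background set to 24.5, and no bar is drawn where both were under it (heterozygous Cxcl5). Measured homozygous bars run from -2.35 for Cx3cl1 to 2.96 for Ccl7, with Cxcl12 at 0.41, while the heterozygous bar of Cxcl12 is at -1.73.

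The receptors of these ligands were mostly near background. Of 15 receptor genes listed 13 were on the array and 4 were bright enough to test, 0 of which were called in any comparison by limma. Over all tested genes 4.09% were called against heterozygous and 2.66% against wild-type cells. With a filter at the 60th percentile, signals raised to background or an offset of 16, 1 receptor gene was called against heterozygous cells. Cxcr4, the signalling receptor for Cxcl12, had signals of 0.631 and 12.0 in homozygous, 18.5 and 1.55 in heterozygous and 82.2 and 20.7 in wild-type arrays, so 1 array of 6 was above background. Ackr3 had 70.0 and 5.11 in homozygous, 15.8 and 21.8 in heterozygous and 48.5 and 0.352 in wild-type arrays. Neither receptor of Cxcl12 was above background in more than 2 of the 6 arrays.

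Il6st, the gp130 subunit, had signals of 645 and 1210 in homozygous, 1508 and 1537 in heterozygous and 1498 and 1369 in wild-type arrays, lower in both homozygous arrays but not called (log2 fold change -0.79 against heterozygous cells, adjusted p of 0.199 by limma). Lifr, which pairs with gp130 to bind Lif, had 3517 and 1665 in homozygous, 587 and 394 in heterozygous and 980 and 634 in wild-type arrays, higher in both homozygous arrays. Its log2 fold change was 2.33 ± 0.47 against heterozygous and 1.62 ± 0.47 against wild-type cells, neither of which passed (adjusted p of 0.0606 and 0.108 by limma). Ackr1, an atypical receptor that binds many inflammatory chemokines, had 31.0 and 59.1 in homozygous, 182 and 89.9 in heterozygous and 504 and 225 in wild-type arrays, with a log2 fold change of -2.98 against wild-type cells (adjusted p of 0.0646 by limma).

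Dpp4 fell with homozygosity. It encodes a surface peptidase that clips and inactivates CXCL12 and other chemokines. Its signals were 24.6 and 62.5 in homozygous, 1078 and 1103 in heterozygous and 570.5 and 863 in wild-type arrays, with homozygous array 1 at the background level. On the log2 scale it fell by 4.80 ± 0.50 against heterozygous cells and fell by 4.16 ± 0.50 against wild-type cells (SE, adjusted p of 0.0220 and 0.03105 by limma). Both calls ended without any 1 of the wild-type and heterozygous arrays, without wild-type array 2 and heterozygous array 1 together, with no filter, with averaged probe sets, with the third group left out and with the replicate block, where 0 genes of its list were called. Under a filter at the 60th percentile 0 genes of the list were called as well, but that filter takes dimmer genes out of the test. Cxcl16, with higher adjusted p than Dpp4 before, passed there against both groups, so this 0 need not be a lost call of Dpp4. Of the 13 genes listed for processing of chemokines and decay of their messages, 11 were tested, and Dpp4 alone was called in these comparisons. The share of all tested genes called was 4.09% against heterozygous and 2.66% against wild-type cells. The median log2 fold change of the list was -0.58 against heterozygous (-0.08 over all tested genes) and -0.59 against wild-type cells (-0.09 over all). Adam10, the protease that sheds Cxcl16 and Cx3cl1 from the membrane, had 6155 and 4636 in homozygous, 8709.9 and 7339 in heterozygous and 7328 and 8825 in wild-type arrays, and was not called. Neither were Zfp36l1 and Hnrnpd, which bind AU-rich elements in cytokine messages. Zfp36l1 had 2403 and 11426 in homozygous, 13096 and 14615 in heterozygous and 12870.3 and 12992 in wild-type arrays, low in homozygous array 1 only. Hnrnpd had 10421 and 7844 in homozygous, 6009.97 and 3762 in heterozygous and 4549 and 6219 in wild-type arrays.

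**Figure D4:**
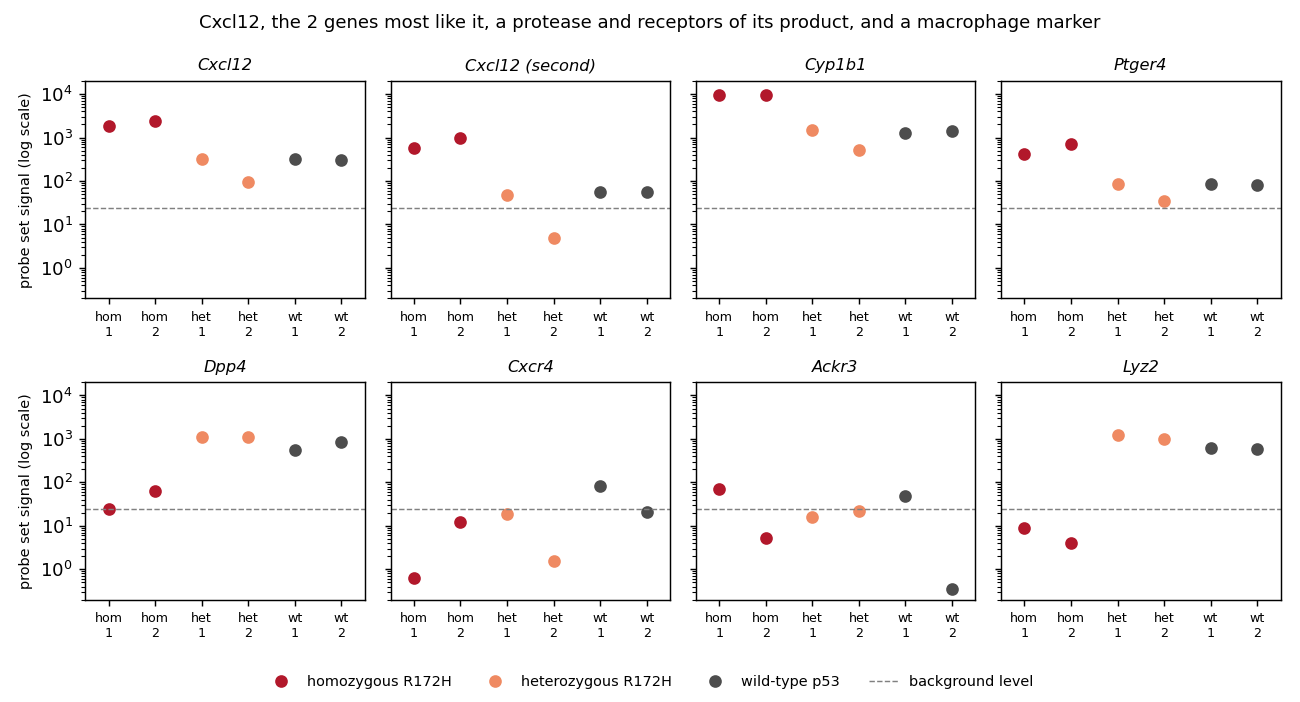
Each point is the signal in 1 array on a log axis for 2 probe sets of Cxcl12, the genes most like it in pattern (Cyp1b1 and Ptger4), the peptidase gene Dpp4, the receptor genes Cxcr4 and Ackr3, and the macrophage marker Lyz2, with the background level of 24.5 dashed. Cxcl12, Cyp1b1 and Ptger4 are high in both homozygous arrays, Dpp4 (24.6 and 62.5) and Lyz2 (8.98 and 4.02) are low there, and Cxcr4 and Ackr3 scatter about or under background.

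Of the genes listed for JAK-STAT3 signalling and the NF-kappaB pathway, 1 was called against heterozygous cells, where 4.09% of all tested genes were. Against wild-type cells 0 were called, where 2.66% of all were. Of 16 genes of JAK-STAT3 signalling 14 were tested. Cebpd, a transcription factor of the acute-phase response, fell by 1.58 ± 0.27 on the log2 scale against heterozygous cells, with 782 and 794 in homozygous, 2219 and 2499.8 in heterozygous and 2222 and 1523 in wild-type arrays (adjusted p of 0.04785 by limma). That call ended without any 1 of the wild-type and heterozygous arrays, without wild-type array 2 and heterozygous array 1 together, with centred arrays, no filter, averaged probe sets, the third group left out, a spread differing between groups and the replicate block. It was the list's 1 call in any comparison. With an offset of 16 the list also had 1 call against wild-type cells. Of the 14 log2 fold changes 12 were negative against each group. Their medians were -0.70 against heterozygous (-0.08 over all tested genes) and -0.59 against wild-type cells (-0.09 over all). Both comparisons share the homozygous arrays, and STAT3 activity was not tested. The brightest members were Cebpb, Timp1 and Pim1, with log2 fold changes of -0.36, -0.235 and -0.998 against heterozygous cells, none called. Of 26 genes of the NF-kappaB pathway 17 were tested and 0 called in any comparison, with a median of 0.12 against heterozygous and 0.18 against wild-type cells. Under a filter at the 60th percentile 1 gene of this list was called against heterozygous cells. Nfkbia, the inhibitor that NF-kappaB itself induces, had 6567 and 10341 in homozygous, 8827 and 10425 in heterozygous and 8565 and 9250.1 in wild-type arrays. Tnfaip2 and Sod2, bright targets of the pathway, had log2 fold changes of -0.40 and 0.16 against heterozygous cells.

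Of 27 other chemokine genes 26 were on the array and 6 were tested, with 0 called in any comparison. Over all tested genes 4.09% were called against heterozygous and 2.66% against wild-type cells. With averaged probe sets, signals raised to background or an offset of 16, 1 gene of the list was called against each of these groups. Cxcl10, an interferon-induced attractant of T cells, had 82.5 and 535 in homozygous, 178 and 49.5 in heterozygous and 123 and 177 in wild-type arrays. Homozygous array 2 was the highest, as for Ccl2, Ccl5 and Ccl7. Cxcl17 had 432 and 78.8 in homozygous, 34.7 and 73.1 in heterozygous and 95.5 and 22.5 in wild-type arrays, and was highest in homozygous array 1. Ccl25, a CC chemokine, had 272 and 113 in homozygous, 120.3 and 181 in heterozygous and 162 and 149 in wild-type arrays. It was highest in homozygous array 1 and lowest in array 2, the reverse of Ccl2 and Ccl7. Cxcl14 was lower in both homozygous arrays, at 26.9 and 8.16, against 116 and 135 in heterozygous and 120 and 225 in wild-type arrays. Its log2 fold changes, -3.08 against heterozygous and -3.48 against wild-type cells, did not pass (adjusted p of 0.0623 and 0.0573 by limma). Pf4 was also lower in both, at 23.4 and 32.1 against 60.1 to 144 elsewhere, and was not called. Against each group 3 of the 6 changes were positive and 3 negative. Of 9 other genes of the interleukin 6 family 3 were tested and 0 called in any comparison. With a filter at the 60th percentile or an offset of 16, 1 of this family was called against wild-type cells. Clcf1 had a log2 fold change of 0.85 against heterozygous cells, Osmr, the oncostatin M receptor, 0.79, and Ctf1 -1.04.

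The genes whose pattern over the 6 arrays was most like that of Cxcl12 were Cyp1b1 and Ptger4, by the root mean square difference of log2 values after each gene was centred on its own mean. Cyp1b1, a cytochrome P450 that hydroxylates oestradiol, differed from Cxcl12 by 0.167, with 9528 and 9781 in homozygous, 1462 and 516 in heterozygous and 1279 and 1389.6 in wild-type arrays. Ptger4, a prostaglandin E2 receptor, differed by 0.190, with 420.5 and 717 in homozygous, 84.6 and 33.9 in heterozygous and 85.9 and 80.7 in wild-type arrays. Espl1 (0.5035), Pdzrn3 (0.523) and Aif1l (0.553) followed, while the median gene differed by 1.69. Cyp1b1 and Ptger4, like Cxcl12, were lowest in heterozygous array 2, which is part of the likeness they were picked by. The likeness is a description over 6 arrays.

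Markers of other cells differed between the same groups. The summed signal of 17 macrophage and myeloid markers was 794 and 772 in homozygous arrays, 6406 and 6066 in heterozygous arrays and 3557 and 2855 in wild-type arrays. Of these markers 8 were under background in both homozygous arrays (Lyz2, Ctss, Aif1, Tyrobp, Ptprc, C1qa, C1qc and Itgam). Aif1 and Itgam were under it in both wild-type arrays as well. In both homozygous arrays 15 of the 17 markers were lower than in both heterozygous arrays, as were Cxcl16 and 34.2% of all tested genes. The part of macrophage and myeloid cells in the Cxcl16 result was not tested. The summed signal of 9 fibroblast markers was 22882 and 88214 in homozygous, 45533 and 58309 in heterozygous and 65418 and 47799 in wild-type arrays, lowest in homozygous array 1 and highest in array 2, as for Ccl2 and Ccl7. The sum is carried by Col1a2, Col3a1 and Dcn, and the markers differed among themselves. Pdgfra fell, with 129.5 and 103 in homozygous, 801 and 1083 in heterozygous and 615 and 1056 in wild-type arrays (adjusted p of 0.0291 against heterozygous and 0.0327 against wild-type cells by limma). Thy1 had 3.44 and 37.3 in homozygous, 622 and 428 in heterozygous and 677 and 458 in wild-type arrays, and was not called. Col1a2 had 21105 and 32905 in homozygous, 5417 and 8309 in heterozygous and 20709.8 and 6965 in wild-type arrays, and was not called. It was the 1 marker of the 9 with both homozygous arrays above those of either other group, narrowly so for wild-type array 1. Below those of either group were 2 of the 9, Pdgfra and Thy1. These 3 were named after their values were seen. The part of stromal RNA in the Cxcl12, Ccl2 and Ccl7 values was not tested.

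For 9 endothelial markers the sums were 1917 and 2767 in homozygous, 9106 and 10427.5 in heterozygous and 10488 and 10946 in wild-type arrays. Under background were 6 of 9 in both homozygous arrays, 6 and 3 in the heterozygous and 3 and 2 in the wild-type arrays. The 12 markers of ovarian surface epithelium and mesothelium summed to 58529 and 68825 in homozygous, 181080 and 140714 in heterozygous and 160299 and 201291 in wild-type arrays, and all were above background in every array but 1 marker in homozygous array 1. In both homozygous arrays 10 of the 12 were lower than in both heterozygous arrays, as were 34.2% of all tested genes. Lower than in both wild-type arrays were again 10, and 33.8% of all tested genes. The 7 granulosa and theca markers summed to 236 and 1374 in homozygous, 2765 and 4330.3 in heterozygous and 7543 and 4184 in wild-type arrays. The 6 lymphocyte markers summed to between 283 and 436 in all arrays. Of the lymphocyte markers 4 were under background in every array but wild-type array 1, where 3 were. In both homozygous arrays these were Cd3e, Cd3g, Cd2 and Cd79a. How far any of these cells account for the values of the chemokine genes was not tested.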

How the data were processed

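Signals of 6 arrays were analysed. The deposited values are probe set intensities on a linear scale, from total RNA labelled with biotin per the labels' protocols. The submitters' processing notes name RMA, with no version given in the sources used here. The deposited intensities have a mean of 500 over the middle 96% of probe sets in every array and differ in their quantiles, the form of MAS 5.0 signals. Log2 was taken with no offset and no normalisation was added. Of 45101 probe sets 34945 named 1 symbol, 932 several and 9211 none, and control probe sets were left out. Symbols were updated by Entrez identifier for 34741. Genes with several probe sets were read from the brightest on average, and the 40th percentile was a geometric mean signal of 60.2. Limma 3.58.1 in R 4.3.3 had 3 residual and 2.26 prior degrees of freedom. The procedure was tested on simulated data. Plots used matplotlib 3.10.9 under Python 3.11.15.

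The members, gene lists, tests and alternatives were chosen with earlier results of these data known. Named beyond the members are genes called in a pathway list, its 3 brightest genes, Cxcr4, Ackr3, Il6st and Lifr, and the 5 genes most like Cxcl12. Cxcl14 and Pf4 were named after their values were seen. Alternatives were another normalisation, centring, filter, probe set rule, floor or offset, another spread, the replicate block and each array left out. An alternative without wild-type array 2 and heterozygous array 1 was chosen after seeing the data. The mutated gene was not analysed here.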

Additional observations from a re-analysis of the deposited data

How the results depend on the processing

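With 2 arrays a group and a pooled spread, calls stand close to the threshold. Of 348 log2 fold changes of the 7 tested genes under 17 alternatives, 323 kept their direction and 295 also their side of the threshold. Against heterozygous cells the 446 called genes and 2 called members became 298 and 1 with centred arrays, 17 and 0 with no filter, 281 and 1 when probe sets were averaged, 9 and 0 when the third group was left out, 290 and 0 with a spread differing between groups, and 0 and 0 without wild-type array 2 and heterozygous array 1. They became 732 and 2 with signals raised to background and 718 and 2 with an offset of 16. Against wild-type cells the 290 genes and 0 members became 190 and 1 when probe sets were averaged, 431 and 1 under a filter at the 60th percentile, 605 and 1 with signals raised to background, 604 and 1 with an offset of 16, and 0 and 0 with no filter, without the third group or without the 2 close arrays. The member gained was Cxcl16 in each case. Leaving out 1 array gave between 0 and 2664 genes and 0 and 2 members against wild-type cells, and between 0 and 2842 genes and 0 and 3 members against heterozygous cells, the high counts coming without a homozygous array, whose pair has the widest spread. Between heterozygous and wild-type cells every alternative gave 0 calls by limma.

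For Cxcl12 against heterozygous cells the log2 value stayed at 3.60 but lost its call with no filter (adjusted p of 0.116 by limma), the third group left out (0.118) or a spread differing between groups (0.0700), and was 2.64 when probe sets were averaged and 4.46 without the 2 close arrays, neither passing. With 1 array left out it lay between 2.73 and 4.46, and against wild-type cells between 2.55 and 2.96. Cxcl12 between heterozygous and wild-type cells lay between -1.71 and 0.0229 with 1 array left out, turning without heterozygous array 2. Its lowest value over all 17 alternatives was -1.75.

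In homozygous cells Cxcl16 kept its direction against both other groups in all 17 alternatives, and passed in 7 of them against heterozygous and in 5 against wild-type cells. Directions that turned belong to changes that did not pass. Lif against wild-type cells was 0.15 with quantile normalisation, 0.22 with centred arrays and 0.28 without the 2 close arrays, and between heterozygous and wild-type cells 0.0345 without those. Cx3cl1 against heterozygous cells was 0.12 with centred arrays. With 1 array left out, values against wild-type cells ran from -0.93 to 1.42 for Cx3cl1, -1.86 to 0.82 for Ccl2, -1.05 to 1.92 for Ccl7 and -0.49 to 0.32 for Lif. Against heterozygous cells they ran from -1.28 to 1.07 for Cx3cl1, -1.13 to 1.55 for Ccl2, -0.77 to 2.19 for Ccl7 and -0.40 to 0.41 for Lif. Between heterozygous and wild-type cells they ran from -0.66 to 0.0197 for Cxcl1, -0.16 to 0.37 for Cxcl16, -0.0826 to 0.78 for Cx3cl1, -0.60 to 0.0556 for Ccl7 and -0.46 to 0.27 for Lif. The cause was not tested.

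The groups share replicate numbers, which the labels do not say mark a pairing. Same-numbered arrays' deviations from their group means correlated at -0.10 for homozygous and wild-type, -0.30 for heterozygous and wild-type and 0.16 for homozygous and heterozygous arrays over tested genes. With the replicate block, 0 genes were called against wild-type and 19 genes and 0 members against heterozygous cells, Cxcl12 keeping 3.60 (adjusted p of 0.0803 by limma). Centring the arrays moved the median of all genes to 0.22 against wild-type and 0.14 against heterozygous cells. Signals near background limit what can be said of Cxcl5, Ccl5, Il6, Cxcr4 and Ackr3.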
